A study of Mus musculus with 18 samples.

Results

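The genes described here encode the TGF-beta ligands Tgfb1, Tgfb2 and Tgfb3 and the receptors Tgfbr1 and Tgfbr2. They also encode Ltbp1, Ltbp2 and Ltbp3 of the latent TGF-beta binding protein family, the transducer Smad3 and the inhibitory Smad7. They were chosen by symbol from the deposited expression table and make up 10 of its 22019 genes. All 10 were among the 16021 genes that passed the filter on low values. Messenger RNA was sequenced from NIH 3T3 cells, a line of mouse embryonic fibroblasts, that carried a doxycycline-inducible construct introduced by retrovirus and had 1 μg/ml doxycycline for 48 hr on fibronectin-coated polyacrylamide gels. SUN1L cells expressed SS-HA-Sun1L-KDEL, the lumenal domain of SUN1, which disrupts the LINC complex that ties the nucleus to the cytoskeleton. KDEL cells, the controls, expressed SS-GFP-KDEL, so that induction and a protein held in the endoplasmic reticulum were common to both. The methods report fluorescence sorting to enrich the KDEL cells and mention none for SUN1L cells. Sorting and construct therefore cannot be told apart in comparisons of these lines. Libraries 4, 16 and 28 came from KDEL cells on 1 kPa, 3, 15 and 27 from SUN1L cells on 1 kPa, 8, 20 and 32 from KDEL cells on 308 kPa, and 7, 19 and 31 from SUN1L cells on 308 kPa. KDEL cells on 308 kPa were also treated with 25 μM Y27 (an inhibitor of contractility) in libraries 12, 24 and 36, or with 10 μM blebbistatin (an inhibitor of the myosin II motor) in libraries 10 and 22. Library 34 came from empty vector cells on 308 kPa whose labels disagree on the inhibitor, so it stands in no group and its values are given on their own. Whether a line was 1 clone or a mixed population is not given in the sources used here.

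TGF-beta ligands are secreted in a latent form, bound to their own propeptide and through it to a latent binding protein that anchors the complex in the matrix. Fibroblasts free the ligand by proteases and by pulling on the complex through integrins. Free ligand binds TGFBR2, which activates TGFBR1, and TGFBR1 phosphorylates SMAD2 and SMAD3, which enter the nucleus and regulate matrix, contractile and growth arrest genes. SMAD7 is induced by the same signal and restrains it at the receptor. The table measures the messenger RNA of these parts, not free ligand or phosphorylated SMADs.

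Values are normalized signal on a linear scale, with 1 as the lowest value. Estimated depth was 12670000 to 19460000 read pairs per library, and by this estimate 1 read pair was worth 1.70 to 2.49 units. Only 27.6 to 29.8% of values lay within 0.1 of a whole number of such read pairs, so the unit is approximate. The construct was checked first: Sun1 signal was 48167 to 82617 in SUN1L cells on 1 kPa and 38452 to 73357 on 308 kPa, against 2785 to 3799 in the other 12 libraries. Libraries 3, 7 and 8 stood apart, with a summed signal of 20 G2/M genes of 11077 to 16673 against 77989 to 133004 in the other 15. In each of these 3 libraries Tgfb1, Ltbp1 and Ltbp2 were the lowest of their group and Tgfbr2 and Smad3 the highest. Ltbp1 was also the lowest and Tgfbr2 the highest of their groups in libraries 4, 10 and 12. Those had G2/M sums of 106873, 84589 and 93506. Tgfb1 was lowest in libraries 4 and 12 too, and Ltbp2 in 10 and 12. The part of libraries 3, 7 and 8 in the differences was not tested, and values without them are given for some differences below. Libraries 3 to 12, 15 to 24 and 27 to 36 form 3 runs by number, a grouping no label gives, with 1 library of each group apiece, except that the third has library 34 and no blebbistatin library. Of the cell type markers, the 8 fibroblast genes summed to 212301 to 519531 units and the 4 endothelial ones to 334 to 3979. The 5 epithelial ones summed to 227 to 1165, the 5 immune ones to 192 to 664 and the 4 muscle ones to 214 to 734. Epcam, Cldn4, Cd3e, Myod1 and Myog were below 10 in all libraries, and the other markers of these lists were not.

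Promoters are shown for Tgfb1 and Smad3, whose signal in every Y27 library lay below every untreated KDEL library on 308 kPa. The windows run from 250 bases before to 50 after the annotated start, on the gene's own strand, from RefSeq on GRCm38.p6, where 8 of the 10 members have an entry. Capitals mark the GC box, the letters GGGCGG on either strand, known as a binding site of Sp1.
Tgfb1, plus strand, chr7:25686752-25687051: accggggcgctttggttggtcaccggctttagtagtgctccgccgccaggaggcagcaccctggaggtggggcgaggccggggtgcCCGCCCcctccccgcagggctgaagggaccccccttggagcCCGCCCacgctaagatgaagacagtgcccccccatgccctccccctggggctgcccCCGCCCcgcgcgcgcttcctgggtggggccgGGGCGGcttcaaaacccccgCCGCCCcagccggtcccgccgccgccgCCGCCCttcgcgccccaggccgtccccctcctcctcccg
Smad3, minus strand, chr9:63757945-63758244: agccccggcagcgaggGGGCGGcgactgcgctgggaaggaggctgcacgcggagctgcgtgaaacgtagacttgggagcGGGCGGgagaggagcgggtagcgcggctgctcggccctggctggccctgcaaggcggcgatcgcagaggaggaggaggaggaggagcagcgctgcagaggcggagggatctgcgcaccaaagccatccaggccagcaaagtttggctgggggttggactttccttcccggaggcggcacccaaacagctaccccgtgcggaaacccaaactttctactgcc
The Tgfb1 window held 6 GC boxes and the Smad3 window 2, while 35.7% of 32851 windows of this length held at least 1. A window of Tgfbr1 and that of Ltbp2 also held 2, at log2 differences with Y27 of -0.04 and 0.08. The window of Tgfbr2, whose Y27 libraries all lay above the untreated ones, held 0. Neither the Tgfb1 nor the Smad3 window held the SMAD box CAGAC, found in 49.6% of windows, or the AP-1 motif TGANTCA, found in 7.81%, with both strands searched and overlaps allowed. These matches describe letters in a window and say nothing of binding.

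Per length of exon, Ltbp3 was the most abundant member and the ligands Tgfb1 and Tgfb2 had the lowest medians. Ltbp3, a latent binder, had a median of 1963 signal units per kb over the 18 libraries (range 1572 to 2266) and ranked first in all 18. Smad7 followed at a median of 802 per kb, then Tgfb3 at 765, Tgfbr2 at 624, Ltbp2 at 609 and Ltbp1 at 578. These 5 had no fixed order: Smad7 exceeded Tgfb3 in 11 of 18 libraries, Tgfb3 exceeded Tgfbr2 in 9, Tgfbr2 exceeded Ltbp2 in 9 and Ltbp2 exceeded Ltbp1 in 14. Smad3 came next at a median of 374 per kb, below Ltbp1 in 15 of 18 libraries and above Tgfbr1 in 18. Tgfbr1 stood at 211 per kb, Tgfb1 at 165 and Tgfb2 at 99.2, with Tgfbr1 above Tgfb1 in 12 libraries and Tgfb1 above Tgfb2 in 16. Among the ligands Tgfb3 ranged over 507 to 998 per kb, with no overlap with Tgfb1 at 116 to 294 or Tgfb2 at 79.7 to 165. Over all libraries the spread of a member was widest for Ltbp2, at 4.35-fold between the highest and lowest library, and narrowest for Ltbp3, at 1.44-fold.

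**Figure D1:**
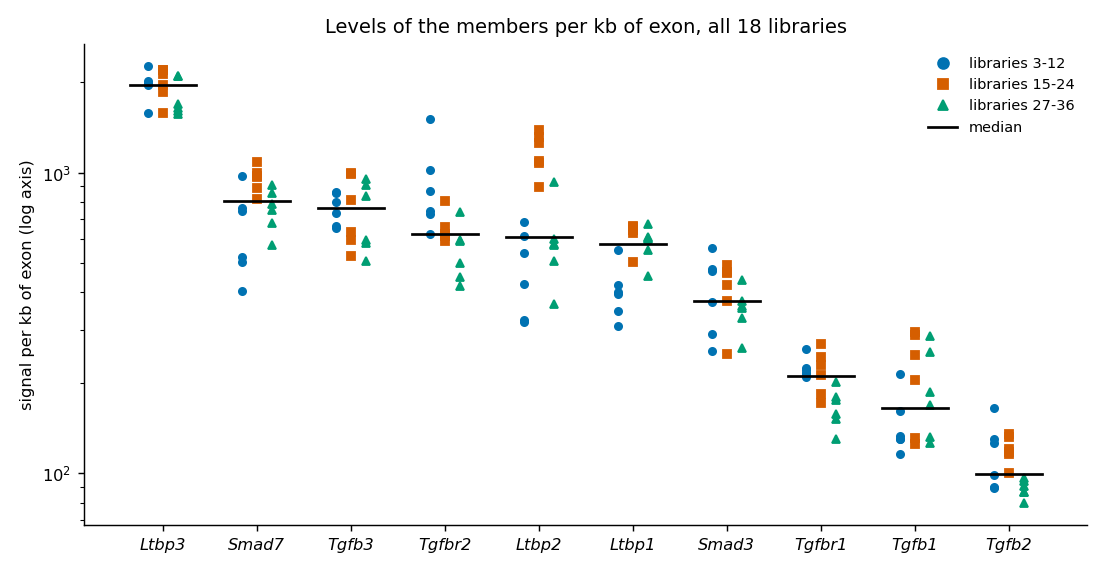
Signal per kb of exon on a log axis for each member in each of the 18 libraries, with the 3 runs of library numbers in separate colors and markers and the median as a line. Ltbp3 lies above all other members in each library, and Tgfb1 and Tgfb2 have the lowest medians.

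Across 7 comparisons of groups and the interaction of SUN1L with rigidity, limma called 0 of 10 members. A call needed an adjusted p below 0.05 and a difference of 2-fold or more. Calls were as few elsewhere in the table: 0.0874% of the tested genes for SUN1L on 1 kPa, 0.0624% for SUN1L on 308 kPa and 0% for the other 6. An unadjusted p under 0.05 was met by Smad7 for rigidity in KDEL cells, where 1.37% of tested genes met it, and by Smad3 for Y27, where 5.8% did. It was met by 0 of 10 members for SUN1L on 1 kPa (4.54% of tested genes), SUN1L on 308 kPa (2.53%), rigidity in SUN1L cells (1.93%), blebbistatin (3.04%), Y27 against blebbistatin (2.32%) and the interaction (0.905%). Because these are bulk samples, fewer cells expressing a gene and less messenger RNA per cell cannot be told apart. Differences below are log2 ratios of signal + 1 from limma.

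**Figure D2:**
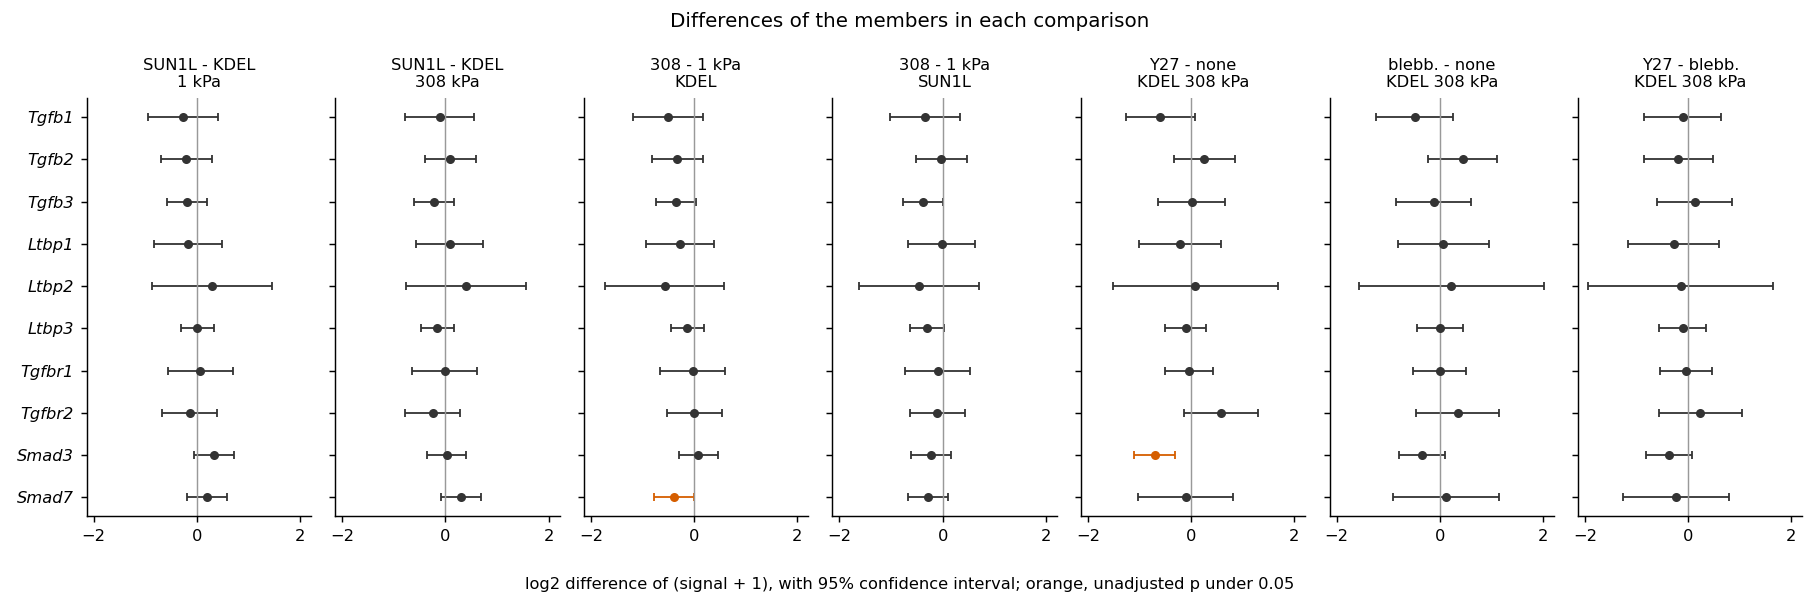
Log2 differences of the members with 95% confidence intervals from limma, 1 panel per comparison, on log2(signal + 1). The intervals of Smad3 with Y27 and of Smad7 for rigidity in KDEL cells, in orange, lie below 0, and all others include 0.

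**Figure D3:**
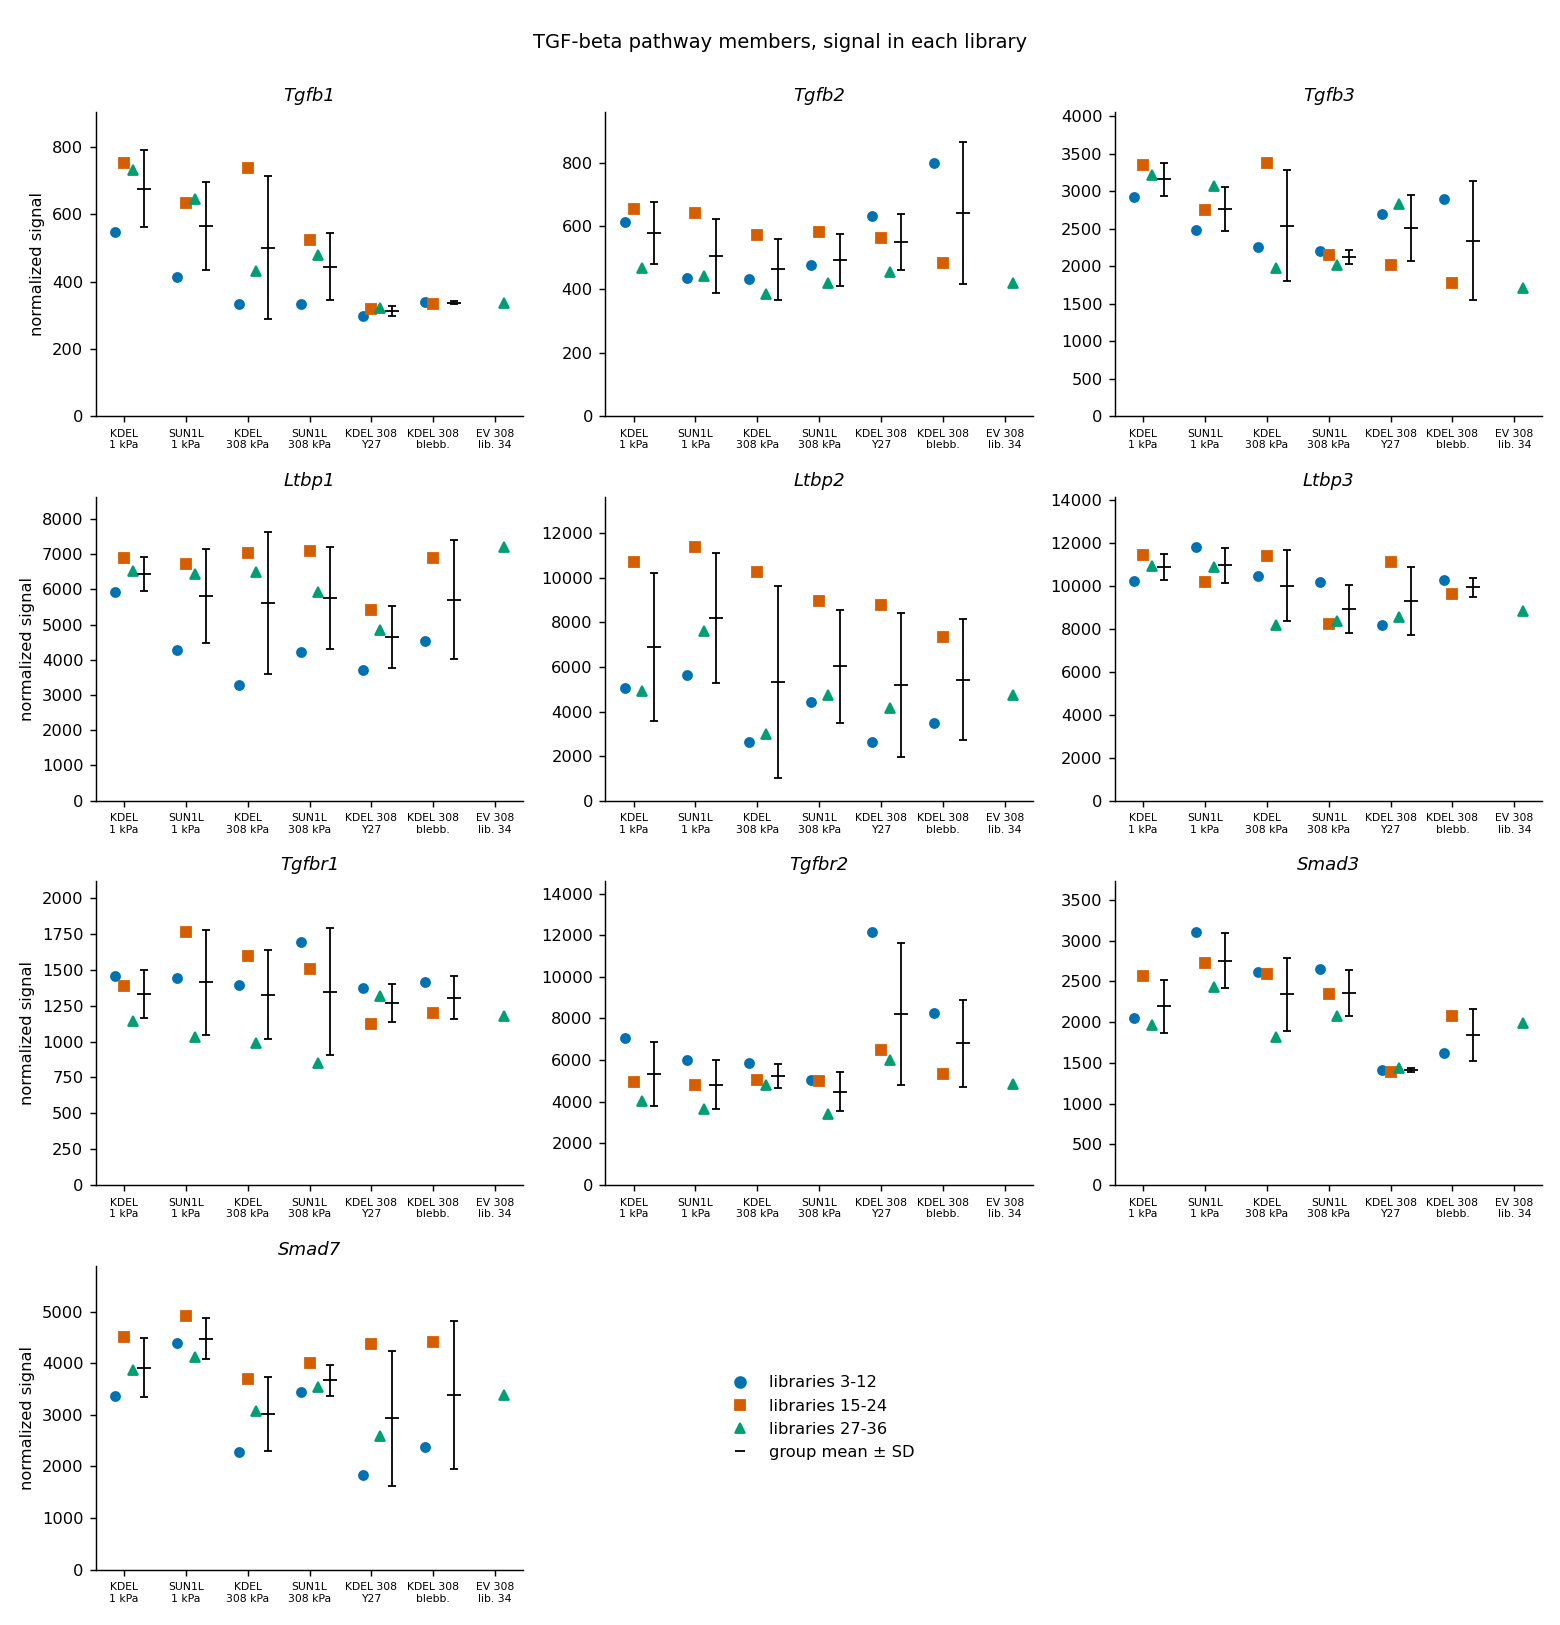
Normalized signal of each member in each library by group, with the runs of library numbers in separate colors and markers and the group mean ± SD in black for groups of 2 or 3 libraries. Tgfb1 lies between 297 and 340 in the 6 inhibitor libraries, and Ltbp2 is highest in the run of libraries 15 to 24 within each group.

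The first question was how the ligands responded to gel rigidity and to SUN1L. Tgfb1, the best studied ligand of fibroblast activation (GRCm38 chromosome 7, 25687002 to 25705077, plus strand), had a signal of 546, 753 and 731 in KDEL cells on 1 kPa and 332, 738 and 432 on 308 kPa, in the library order given above. SUN1L cells gave 413, 634 and 647 on 1 kPa and 334, 522 and 478 on 308 kPa. Within every run and both cell lines the stiff gel had the lower Tgfb1 value, in 6 of 6 pairs, although the groups overlapped. Group means were 677 ± 114 and 501 ± 212 in KDEL cells and 565 ± 131 and 445 ± 98.4 in SUN1L cells (SD, n = 3 each). The rigidity difference was -0.50 (SE 0.31, adjusted p = 1) in KDEL and -0.34 (SE 0.31, adjusted p = 1) in SUN1L cells. Its KDEL value was -0.82 without library 20 and -0.25 without library 8. SUN1L differed from KDEL cells by -0.28 (95% interval -0.95 to 0.40) on 1 kPa and -0.11 (95% interval -0.79 to 0.56) on 308 kPa. With each library left out in turn these were -0.42 to -0.06 and -0.37 to 0.21.

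Tgfb2, a ligand best known from development (GRCm38 chromosome 1, 186622792 to 186705989, minus strand), showed less of this order. It had 613, 654 and 469 in KDEL cells on 1 kPa and 433, 571 and 386 on 308 kPa, and 435, 642 and 441 against 477, 582 and 419 in SUN1L cells. The stiff gel was lower in 5 of 6 pairs, and the exception was the pair of libraries 3 and 7. The rigidity difference was -0.33 (SE 0.22, adjusted p = 1) in KDEL and -0.03 (SE 0.22, adjusted p = 1) in SUN1L cells.

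Tgfb3, the most abundant ligand messenger here (GRCm38 chromosome 12, 86056744 to 86079041, minus strand), stood at 2921, 3352 and 3212 in KDEL cells on 1 kPa and at 2256, 3378 and 1979 on 308 kPa. In SUN1L cells it stood at 2484, 2752 and 3069 on 1 kPa and at 2208, 2153 and 2023 on 308 kPa, so that all 3 stiff libraries lay below all 3 soft ones. Means were 3162 ± 220 and 2538 ± 741 in KDEL cells and 2768 ± 293 and 2128 ± 94.9 in SUN1L cells (SD, n = 3 each). The rigidity difference was -0.35 (SE 0.18, adjusted p = 1) in KDEL and -0.38 (SE 0.18, adjusted p = 1) in SUN1L cells, and the interaction between them was -0.02 (95% interval -0.57 to 0.53). Library 20 was the exception in KDEL cells, where the difference was -0.58 without it and -0.19 without library 32. SUN1L values lay below KDEL values in 5 of 6 pairs, with differences of -0.19 (95% interval -0.58 to 0.19) on 1 kPa and -0.22 (95% interval -0.60 to 0.17) on 308 kPa, the latter 0.01 without library 20.

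Receptor messengers had rigidity differences near 0, with wide intervals. Tgfbr2, the ligand-binding kinase (GRCm38 chromosome 9, 116087698 to 116175363, minus strand), had 7047, 4965 and 4036 in KDEL cells on 1 kPa and 5885, 5057 and 4801 on 308 kPa, with 6016, 4806 and 3646 against 5043, 4987 and 3399.5 in SUN1L cells. The rigidity difference was 0.01 (95% interval -0.53 to 0.54) in KDEL and -0.10 (95% interval -0.64 to 0.44) in SUN1L cells. Tgfbr2 was lower in SUN1L than in KDEL cells in 6 of 6 pairs, a count whose share among tested genes was not computed. Its SUN1L differences were -0.14 (SE 0.24, adjusted p = 0.943) on 1 kPa and -0.25 (SE 0.24, adjusted p = 1) on 308 kPa. Tgfbr1, the kinase that phosphorylates SMADs (GRCm38 chromosome 4, 47353222 to 47414931, plus strand), had 1459.8, 1391 and 1143 in KDEL cells on 1 kPa and 1396, 1597 and 991 on 308 kPa, with 1444, 1765 and 1032 against 1694, 1504 and 848 in SUN1L cells. The third-run library was the lowest of each of these 4 groups. The rigidity difference of Tgfbr1 was -0.02 (95% interval -0.65 to 0.61) in KDEL and -0.09 (95% interval -0.72 to 0.53) in SUN1L cells.

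The Ltbp genes included the member with the widest spread between libraries of a group. Ltbp2, a matrix protein (GRCm38 chromosome 12, 84783212 to 84876532, minus strand), had 5052, 10727 and 4922 in KDEL cells on 1 kPa and 2644, 10273 and 3002 on 308 kPa, with 5620, 11366 and 7629 against 4436, 8961 and 4722 in SUN1L cells. Each second-run library was the highest of its group. Within runs the stiff gel was lower in 6 of 6 pairs, although the groups overlapped. The rigidity difference was -0.57 (SE 0.52, adjusted p = 1) in KDEL and -0.46 (SE 0.52, adjusted p = 1) in SUN1L cells, and both moved with single libraries. The KDEL value was -1.19 without library 20, -0.20 without library 16 and -0.21 without libraries 3, 7 and 8. SUN1L exceeded KDEL in 5 of 6 pairs of Ltbp2, with differences of 0.29 (95% interval -0.87 to 1.45) on 1 kPa (0.53 without libraries 3, 7 and 8) and 0.40 (95% interval -0.76 to 1.56) on 308 kPa, the latter 1.02 without library 20 and 0.04 without library 8.

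Ltbp1, a carrier of latent TGF-beta in the matrix (GRCm38 chromosome 17, 75005568 to 75392512, plus strand), had 5919, 6884 and 6517 in KDEL cells on 1 kPa, 3295, 7031 and 6503 on 308 kPa, and 4291, 6712 and 6428 against 4214, 7095 and 5926 in SUN1L cells. In each of these groups the lowest value is that of the first-run library, 4, 8, 3 and 7 in this order. The first-run library was the lowest with each inhibitor too. The rigidity difference of Ltbp1 was -0.27 (SE 0.29, adjusted p = 1) in KDEL and -0.02 (SE 0.29, adjusted p = 1) in SUN1L cells. Without libraries 3, 7 and 8 it was 0.07 and -0.02. The part of the run or of the G2/M level in this was not tested. Ltbp3, the third gene of this family (GRCm38 chromosome 19, 5740904 to 5758532, plus strand), had 10222, 11409 and 10928 in KDEL cells on 1 kPa and 10456, 11366 and 8175 on 308 kPa. In SUN1L cells Ltbp3 had 11778, 10184 and 10862 on 1 kPa against 10182, 8211 and 8354 on 308 kPa, with the highest stiff value just below the lowest soft one. That difference was -0.30 (SE 0.15, adjusted p = 1), and the one in KDEL cells -0.13 (SE 0.15, adjusted p = 1).

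Smad7, the inhibitory SMAD, is encoded on chromosome 18 (GRCm38, 75367529 to 75395935, plus strand) and kept the same order between rigidities and between cell lines. It had 3363, 4502 and 3870.4 in KDEL cells on 1 kPa against 2280.3, 3703 and 3073 on 308 kPa. SUN1L cells had 4401, 4910.4 and 4125 on 1 kPa against 3451, 4011 and 3548 on 308 kPa, and these groups did not overlap. The stiff gel was lower in 6 of 6 pairs. SUN1L was higher than KDEL in 6 of 6, a count whose share among tested genes was not computed. The rigidity difference was -0.39 (SE 0.18, adjusted p = 1) in KDEL and -0.29 (SE 0.18, adjusted p = 1) in SUN1L cells, and their interaction 0.11 (95% interval -0.44 to 0.65). Without library 8 the KDEL value was -0.20 and no longer met an unadjusted p under 0.05. The SUN1L difference was 0.20 (SE 0.18, adjusted p = 0.93) on 1 kPa and 0.31 (SE 0.18, adjusted p = 1) on 308 kPa. It was 0.10 on 1 kPa without library 4. On 308 kPa it was 0.12 without library 8 and 0.16 without libraries 3, 7 and 8.

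Smad3, a transducer of the signal to matrix genes (GRCm38 chromosome 9, 63646767 to 63757994, minus strand), stood at 2051, 2568 and 1969 in KDEL cells on 1 kPa and at 2614, 2591 and 1819 on 308 kPa. In SUN1L cells it stood at 3109, 2725 and 2429.9 on 1 kPa and at 2651, 2347 and 2076 on 308 kPa. SUN1L differed from KDEL cells by 0.33 (SE 0.17, adjusted p = 0.93) on 1 kPa and by 0.02 (SE 0.17, adjusted p = 1) on 308 kPa, and the interaction was -0.31 (95% interval -0.85 to 0.24). Without libraries 3, 7 and 8 the Smad3 differences were 0.24 and 0.02.

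Over the members, 8 of 10 had a negative rigidity difference in KDEL cells and 10 of 10 in SUN1L cells, with medians of -0.30 and -0.26 against -0.01 for all tested genes in each. These comparisons have no library in common. In KDEL cells the members ranged from -0.57 to 0.08, and without libraries 3, 7 and 8 from -0.29 (Tgfb3) to 0.07 (Ltbp1). In SUN1L cells they ranged from -0.46 to -0.02, and without these libraries from -0.52 (Ltbp2) to -0.02 (Ltbp1). Tgfb3, Ltbp3 and Smad7, 3 of 10, did not overlap between rigidities in SUN1L cells, all lower on the stiff gel, where 3.08% of tested genes were lower and 4.77% did not overlap in either direction. In KDEL cells it was 0 of 10 against 4.78%. Between SUN1L and KDEL cells 0 of 10 were free of overlap on 1 kPa, against 14.5% of tested genes, and 0 of 10 on 308 kPa, against 4.29%. Tgfb1, Ltbp2 and Smad7, 3 of 10, were lower on the stiff gel in all 6 pairs, as were 4.08% of tested genes. Such shares were not computed for pairs of SUN1L and KDEL cells. Ltbp1, Ltbp2 and Smad7 were highest in the second run in all 6 groups, as were 2.28% of tested genes.

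With both cell lines in 1 contrast, chosen after the values were seen, Tgfb3 at -0.36 (SE 0.12, adjusted p = 1) and Smad7 at -0.34 (SE 0.12, adjusted p = 1) met an unadjusted p under 0.05, as did 2.91% of tested genes. With the runs as a block 5 of 10 members met it, all lower on 308 kPa, against 8.7% of tested genes. They were Smad7 at -0.34 (SE 0.08, adjusted p = 0.374), Tgfb1 at -0.42 (SE 0.11, adjusted p = 0.424), Ltbp2 at -0.51 (SE 0.14, adjusted p = 0.424), Tgfb3 at -0.36 (SE 0.11, adjusted p = 0.424) and Ltbp3 at -0.22 (SE 0.09, adjusted p = 0.542). The contrast of SUN1L with KDEL cells over both rigidities, with the same block, gave 3 of 10 against 15.7%. These were Smad7 at 0.25 (SE 0.08, adjusted p = 0.186), Ltbp2 at 0.35 (SE 0.14, adjusted p = 0.288) and Tgfbr2 at -0.19 (SE 0.08, adjusted p = 0.297). None passed the adjusted threshold. What a run stands for is not given in the sources used here.

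**Figure D4:**
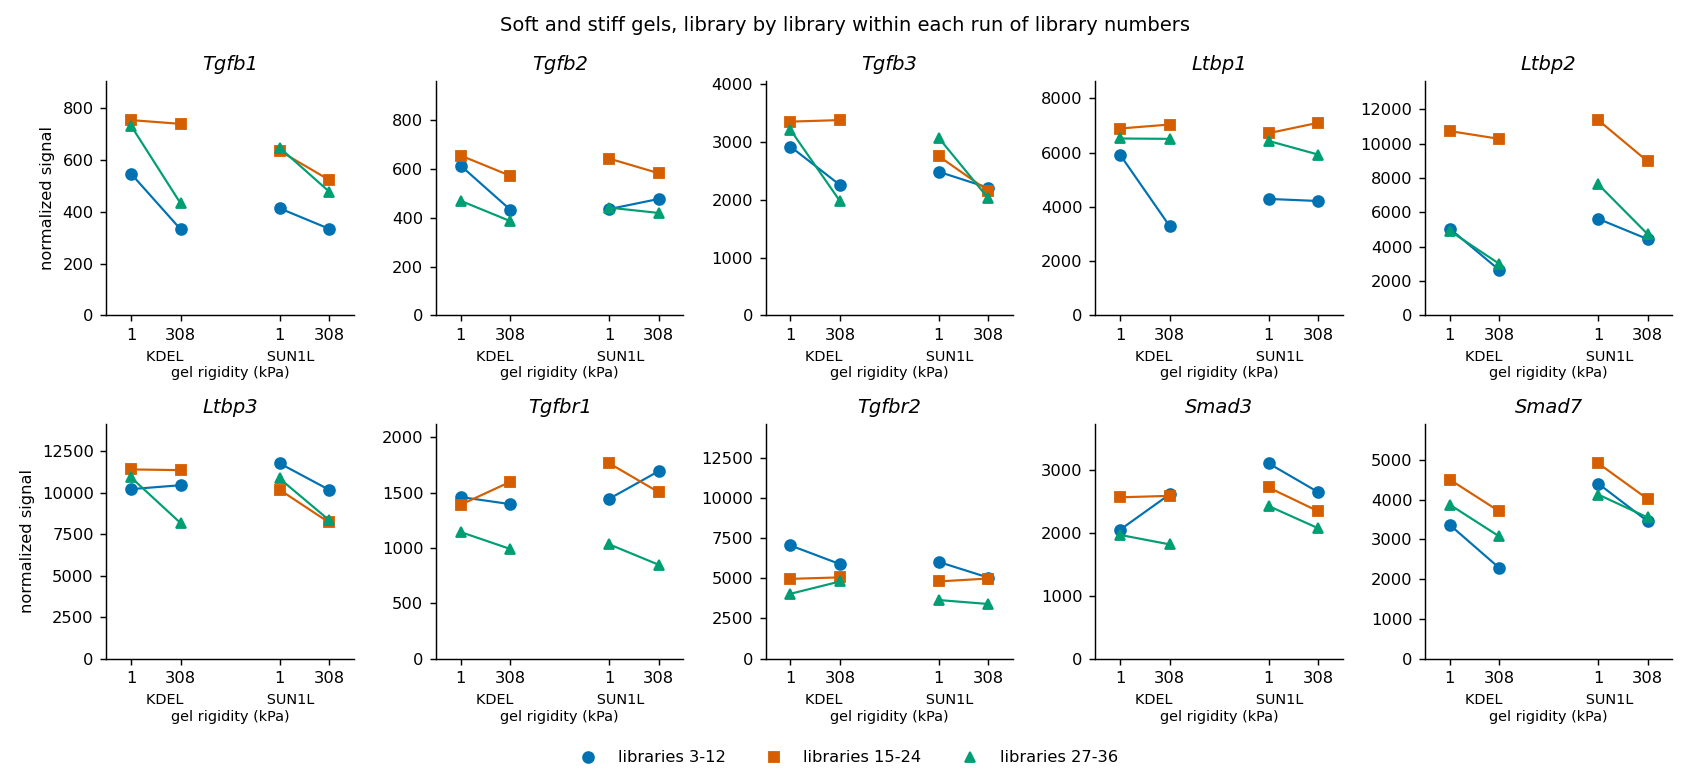
Normalized signal of each member on gels of 1 and 308 kPa in KDEL and SUN1L cells, with a line joining the libraries of 1 run of library numbers. The lines of Tgfb1, Ltbp2 and Smad7 go down in all 6 cases, while those of Tgfbr1, Tgfbr2 and Ltbp1 go both ways.

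A separate question was whether inhibiting contractility in KDEL cells on the stiff gel moved the pathway. Smad3 gave the clearest separation: it was 1416, 1386 and 1442 with Y27 against 2614, 2591 and 1819 in untreated cells. All 3 Y27 libraries lay below all 3 untreated ones and within a narrow band, at a mean of 1415 ± 27.9 against 2341 ± 453 (SD, n = 3 each). The difference was -0.71 (SE 0.17, adjusted p = 0.793) with a 95% interval of -1.11 to -0.31, and it stayed between -0.88 and -0.62 with each library left out in turn. Blebbistatin libraries had 1616 and 2072 (mean 1844 ± 323, SD, n = 2), a difference of -0.34 (SE 0.19, adjusted p = 1) from untreated cells, and library 34 had 1989.8. Y27 and blebbistatin differed by -0.37 (95% interval -0.82 to 0.08), with no overlap of their libraries.

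Tgfb1 also lay in a narrow band with the inhibitors. Y27 libraries had 297, 319 and 323, blebbistatin libraries 340.3 and 334, and library 34 had 337, against 332, 738 and 432 in untreated cells. The lowest untreated value is that of library 8, so the Y27 group lay below the untreated one by a small margin and the blebbistatin group overlapped it. Means were 313 ± 14.2 (n = 3), 337 ± 4.23 (n = 2) and 501 ± 212 (n = 3, all SD). The difference was -0.60 (SE 0.28, adjusted p = 0.827) with Y27 and -0.49 (SE 0.31, adjusted p = 1) with blebbistatin. Leaving out library 8 gave -0.85 and -0.74, while leaving out library 20 gave -0.28 and -0.17.

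Tgfbr2 went the other way with Y27. Libraries 12, 24 and 36 had 12161, 6496 and 5998 against 5885, 5057 and 4801 in untreated cells, so each treated library exceeded each untreated one. Blebbistatin libraries had 8279 and 5328, and library 34 had 4836. The difference was 0.58 (SE 0.30, adjusted p = 0.838) with Y27, which became 0.26 without library 12, and 0.35 (SE 0.34, adjusted p = 1) with blebbistatin, which became 0.03 without library 10 and 0.66 without library 22. Tek, 1 of 4 endothelial markers, was 3928, 2589 and 779 with Y27 against 682, 244 and 125 untreated, while Kdr was at 1 to 4.44 in these 6 libraries. The summed signal of the 4 was 1065 to 3979 with Y27 and 371 to 724 without, and that of the 5 epithelial markers 371 to 1165 and 239.6 to 346. The endothelial sum was 1539 and 639 in blebbistatin libraries 10 and 22, and 951 and 1140 in SUN1L libraries 3 and 7. Their part in the Y27 results was not tested.

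The other members gave wide or small differences with the inhibitors. Tgfb2 had 630.3, 562 and 456 with Y27 and 799 and 484 with blebbistatin, against 433, 571 and 386, differences of 0.25 (95% interval -0.34 to 0.84) and 0.44 (95% interval -0.22 to 1.10). Tgfb3 had 2694, 2013 and 2832 with Y27 and 2899 and 1782 with blebbistatin, against 2256, 3378 and 1979. Smad7 had 1825, 4365 and 2598 with Y27 and 2369 and 4403 with blebbistatin, with the second-run library highest in both, and differences of -0.11 (95% interval -1.03 to 0.81) and 0.13 (95% interval -0.90 to 1.15). Among the Ltbp genes, Ltbp1 had 3698, 5408 and 4848 with Y27 and 4527 and 6899 with blebbistatin, and Ltbp2 had 2611, 8798 and 4171 and then 3505 and 7354. Ltbp3 ranged from 8185 to 11086 and Tgfbr1 from 1119.6 to 1412 in the 5 libraries with a known inhibitor. Over the 10 members the median difference was -0.08 with Y27 and 0.04 with blebbistatin, against 0.01 and 0.00 for all tested genes. Tgfb1, Tgfbr2 and Smad3, 3 of 10, did not overlap between Y27 and untreated libraries, against 8.57% of tested genes. It was 0 of 10 for blebbistatin against 13%, and Tgfb1 and Smad3, 2 of 10, between the inhibitors against 20.4%. Both inhibitors were compared with the same untreated libraries.

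Other genes of the pathway were counted in lists. Of 25 TGF-beta target genes 24 were tested and 0 were called in any comparison. On the stiff gel 19 of the 24 had a negative difference in KDEL and 20 in SUN1L cells (medians -0.37 and -0.14). An unadjusted p under 0.05 was met by 4 and 2 of them, all lower, as by 0.687% and 1.31% of tested genes. Without libraries 3, 7 and 8 the medians were -0.16 and -0.17, and 2 and 1 met that limit. Id3, an inhibitor of differentiation, was 5246 to 6569.6 on 308 kPa against 7456 to 8734 on 1 kPa in KDEL cells (-0.50, SE 0.15, adjusted p = 1) and 4797 to 6247 against 7115 to 9023 in SUN1L cells (-0.49, SE 0.15, adjusted p = 1). Klf10, a TGF-beta inducible transcription factor, was 1423 to 2064 on 308 kPa against 2303 to 2654 on 1 kPa in KDEL cells (-0.46, SE 0.18, adjusted p = 1). Snai1, a repressor of epithelial genes, was 1423 to 2376 on 308 kPa against 2395 to 3696 on 1 kPa in SUN1L cells (-0.69, SE 0.27, adjusted p = 1).

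With inhibitors the target differences were mostly positive, for 16 of 24 with Y27 and 21 of 24 with blebbistatin, with medians of 0.25 and 0.46. An unadjusted p under 0.05 was met by 5 and 4 of them, all higher, as by 3.49% and 1.58% of tested genes. Untreated library 8 lay far below its partners for targets named here after their values were seen. Acta2, smooth muscle actin, had 8635, 20876 and 23176 in libraries 8, 20 and 32, Tagln, an actin-binding protein, 3698, 12548 and 12105, and Ctgf, a matrix-associated growth factor, 4849.9, 14515 and 14494. Tagln with blebbistatin, at 8348 and 11647, exceeded library 8 alone among these. Without libraries 3, 7 and 8 the medians were 0.16 and 0.31, and the limit was met by 5 higher and 3 lower targets with Y27 and by 3 higher and 2 lower ones with blebbistatin. Among all tested genes 3.52% were then higher and 3.48% lower with Y27, and 1.74% and 2.55% with blebbistatin. Id1, another inhibitor of differentiation, was 5272 to 6023 with Y27 against 3359 to 3948 untreated (0.64, SE 0.12, adjusted p = 0.741) and 4658 to 5919 with blebbistatin (0.55, SE 0.13, adjusted p = 1). Col1a1, a collagen chain, was 100927 to 118122 with Y27 against 44811 to 83218 untreated (0.98, SE 0.29, adjusted p = 0.793). Klf10 was 2689.7 to 3144 with blebbistatin against 1423 to 2064 untreated (0.73, SE 0.26, adjusted p = 1).

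SUN1L cells had 2 of 24 targets on 1 kPa and 1 on 308 kPa at an unadjusted p under 0.05, all higher, as 2.75% and 1.36% of tested genes were. Without libraries 3, 7 and 8 it was 1 higher and 1 lower on 1 kPa and 1 higher on 308 kPa. Klf10 was 2954 to 3909 in SUN1L against 2303 to 2654 in KDEL cells on 1 kPa (0.46, SE 0.18, adjusted p = 0.93) and 2567 to 3571 against 1423 to 2064 on 308 kPa (0.72, SE 0.18, adjusted p = 0.733). Cdkn1a, a cell cycle inhibitor, was 11826 to 26261 in SUN1L against 10392 to 10816 in KDEL cells on 1 kPa (0.78, SE 0.32, adjusted p = 0.93), with the highest value in library 3. Eng, a co-receptor, was 89.7 to 133 in SUN1L against 47.5 to 84.5 in KDEL cells on 1 kPa (0.70, SE 0.30, adjusted p = 0.93), the only one of 11 co-receptors at that unadjusted limit in these 8 comparisons. Without libraries 3, 7 and 8, 0 of 11 co-receptors met that limit for SUN1L on 1 kPa.

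Among 19 other SMADs and their regulators, Skil, a SMAD corepressor, was 1217 to 1601 with Y27 against 1854 to 3159 untreated (-0.77, SE 0.22, adjusted p = 0.793) and 1904 to 2359 with blebbistatin. Tgif1, another corepressor, was 3278 to 4418 in SUN1L against 2071 to 3244 in KDEL cells on 1 kPa (0.59, SE 0.21, adjusted p = 0.93). Smad2, a transducer alongside Smad3, was 1754 to 1983 on 308 kPa against 1410.3 to 1699.6 on 1 kPa in SUN1L cells (0.25, SE 0.10, adjusted p = 1). Smurf2, a ubiquitin ligase, was 3408 to 4042 with Y27 against 4321 to 5613 with blebbistatin (-0.39, SE 0.15, adjusted p = 1). None of the 19 was called in any comparison.

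Of 23 genes for latent complexes, activation and traps, 18 had a negative rigidity difference in KDEL and 19 in SUN1L cells, and 1 and 2 met an unadjusted p under 0.05, all lower, as did 0.687% and 1.31% of tested genes. Furin, a protease that cleaves the TGF-beta precursor, was 2219 to 2678 on 308 kPa against 2845 to 3176 on 1 kPa in SUN1L cells (-0.34, SE 0.14, adjusted p = 1). Mmp14, a membrane protease, was 5609.9 to 6601 on 308 kPa against 6980.2 to 7778 on 1 kPa in SUN1L cells (-0.25, SE 0.11, adjusted p = 1). With Y27, 2 of the 23 met an unadjusted p under 0.05, all higher, as did 3.49% of tested genes. Mmp2, a secreted protease, was 19428 to 26727 with Y27 against 10718 to 17034 untreated (0.67, SE 0.21, adjusted p = 0.802), and Fstl1, a follistatin-like protein, was 16456 to 19729.9 with Y27 against 9839 to 15795 untreated (0.48, SE 0.19, adjusted p = 0.827). Of 12 other ligands of the family 7 were tested, and Gdf11 was 2475 to 2541 with blebbistatin against 1009 to 2006 untreated (0.71, SE 0.27, adjusted p = 1).

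Over the 18 libraries the gene whose log2 signal followed a member most closely is given for 9 of the 10 members, as a description, since libraries of a run or a group share their source. By Pearson correlation the most similar gene was Magi1 for Tgfb1 (r = 0.91), Lpar1 for Tgfb2 (r = 0.89) and Bcl9 for Tgfb3 (r = 0.83). It was Samd8 for Tgfbr1 (r = 0.93) and Dcn for Tgfbr2 (r = 0.92). The Ltbp genes were followed by Cd44 for Ltbp1 (r = 0.96), Spry2 for Ltbp2 (r = 0.92) and Col27a1 for Ltbp3 (r = 0.80), and Smad3 by Runx2 (r = 0.93). Between members the highest value was that of Ltbp2 with Smad7 (r = 0.85), both highest in the second run in all 6 groups.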

How the data were processed

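Polyadenylated RNA was sequenced as read pairs from 18 libraries. TopHat 2.0 was the aligner the authors used, and AvadisNGS served them for filtering on quality, mate pairs and duplicates, and for TMM scaling. The deposited signal is linear, 1 value for each gene in each library, and is not divided by length. The methods name mm9, whereas gene positions in the table are those of GRCm38. They state 3 biological replicates per condition. The column of library 34 was matched by its heading, since its number differs.

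Here log2(value + 1) was fitted with limma 3.58.1 in R 4.3.3 (trend, 1 mean per group, two-sided) over genes above 1 in at least 3 of 18 libraries, with 12 libraries for SUN1L and rigidity and 8 for the inhibitors. P-values were adjusted by Benjamini-Hochberg over all tested genes, and the interaction needed a Bonferroni-corrected p below 0.05. The fit was tested on simulated data. Exon lengths came from GENCODE M1. Of each list, at most 2 genes per comparison are named: those with the smallest unadjusted p under 0.05, no overlap and a mean of at least 10. The most similar gene was sought among those at or above the median level, and that for Smad7 is not reported here. The members and lists were chosen with earlier results of these data known. Between 27.6 and 29.8% of values lay within 0.1 of a whole number of read pairs, so no count test was run. The closing section gives the alternatives.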

Additional observations from a re-analysis of the deposited data

Results flagged for a closer look

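Library 34, from empty vector cells on 308 kPa with a disputed inhibitor, entered no comparison. Its Ltbp1 signal of 7194 lay above the 3 untreated KDEL libraries on 308 kPa (3295 to 7031) and was the highest of the 18 libraries. Tgfb3 in the same library, at 1716, was the lowest of the 18. Both are values of 1 library and were not tested.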

How the results depend on the processing

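The number of called members was 0 in all 199 recomputed counts, which covered the filter, the pseudocount, quantile normalization, the libraries in the fit, the variance trend, the run block, the threshold, a test of proportions, library 34 as blebbistatin and each library left out. They also covered fits without libraries 3, 7 and 8 and contrasts over both lines or rigidities. Each of these contrasts was entered under both comparisons that it pools. Of 1990 differences of single members from the same fits, 167 changed sign, none of them a called one, and 16 moved by over 1 SD. The smallest adjusted p of a member in any limma fit was 0.186. The test of proportions, on summed signal, takes no account of the spread between libraries. It gave an adjusted p below 0.05 to 7 to 10 of 10 members per comparison and called 225 to 691 genes, so that the 2-fold limit alone kept those members uncalled. No paired analysis was possible because no label pairs the libraries. Pairs within runs, and the block on runs, rest on library numbers alone. Without libraries 3, 7 and 8 the blocked rigidity contrast had 4 members at an unadjusted p under 0.05 (Tgfb2, Tgfb3, Ltbp3 and Smad7, with Tgfb1 and Ltbp2 no longer among them) against 9.06% of tested genes. The blocked SUN1L contrast had 1 against 13.3%, Smad7 at 0.13 (adjusted p = 0.297). Contrasts over both lines or rigidities, and fits without libraries 3, 7 and 8, were chosen after seeing the data. With 2 or 3 libraries per group, 95% intervals of members reached from -1.94 to 2.02.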
